A study of Mus musculus with 7 samples.

Results

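The genes described here are 9 readers and erasers of N6-methyladenosine (m6A), namely Ythdc1, Ythdc2, Ythdf1, Ythdf2, Ythdf3, Fto, Alkbh5, Igf2bp1 and Hnrnpa2b1. They were taken by symbol from a table of 22556 genes, and all 9 had a row and passed the minimum level of 1 RPM. Levels come from ChrRNA-seq, the sequencing of RNA bound to the insoluble chromatin pellet, which enriches unspliced and nascent transcripts. The cells were C7H8 (iXist-ChrX_Cast) XX mES cells, 1 clone of a Cast x 129S background in which a TetOn promoter replaces that of Xist on the Cast allele. All cultures were grown on mitomycin-inactivated mouse fibroblasts and received 1.0 µg/mL doxycycline (Dox) for the last 24 h. The 3 control libraries came from cells given DMSO for 6 h before Dox and throughout the 24 h with Dox. The inhibitor libraries came from cells given STM2457, a small-molecule inhibitor of METTL3 catalysis, over the same 6 h and 24 h, with 2 libraries at 10 µM, 1 at 20 µM and 1 at 30 µM.

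m6A is placed on nascent RNA by a writer complex whose catalytic subunit is METTL3. Proteins with a YTH domain bind the mark directly, YTHDC1 in the nucleus and the YTHDF proteins in the cytoplasm, while IGF2BP1 and HNRNPA2B1 are RNA-binding proteins that have also been assigned reader roles. FTO and ALKBH5 are oxidative demethylases that can remove the mark. The libraries allow the question of whether the genes for these proteins change their chromatin-associated RNA when METTL3 is inhibited. They do not measure the proteins or the mark itself.

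Depth was 9300549 read pairs on genes at 20 µM, the shallowest library, and 20915215 to 28030180 in the others. The members held between 473 and 17366 read pairs per library. Intervals given for single libraries are 95% intervals for counting error only, and PCR reads without molecular identifiers are not independent molecules. Libraries fell into 2 sets that do not follow dose alone. Principal component 1 held 78.7% of the variance over 13599 genes and set DMSO replicate 3, 20 µM and 30 µM (set 2) apart from the first pair of DMSO libraries and the 10 µM libraries (set 1). Because 20 µM and 30 µM lie in set 2 alone and 10 µM in set 1 alone, the set and the dose cannot be told apart between 10 µM and the higher doses. At 20 µM, 5 genes (Lars2, Cmss1, Gphn, Cdk8 and Camk1d, chosen after their values were seen) held 8.92% of the read pairs, against 1.16% in DMSO replicate 3 and 0.21% to 0.70% elsewhere. Markers of mES cells were present in every library, with 9 of 10 at 1 RPM or more and a summed level of 1999 to 2235 RPM in set 1 and 1667 to 1889 RPM in set 2. Dppa5a had 26.3 to 37.2 RPM in set 1 and 4.71 to 9.89 RPM in set 2, and Klf4 had 56.0 to 70.5 RPM and 23.4 to 38.0 RPM. Tdgf1 and Tfcp2l1 were also lower in every set 2 library, whereas Esrrb, Zfp42, Nanog, Pou5f1 and Utf1 overlapped between the sets. Sox2 was listed at 0 throughout, and its row lies wholly within that of Sox2ot on the same strand, so reads there may not have been assigned to it. Of 12 fibroblast markers, 3 or 4 reached 1 RPM, and Fn1 made up most of their sum, 898 to 1182 RPM in set 1 and 464 to 640 RPM in set 2. Col6a1 also differed between the sets, with 4.53 to 10.7 RPM in set 1 and 0.186 to 0.257 RPM in set 2, while Vim was highest in DMSO replicate 3 (32.7 RPM) and at 20 µM (36.2 RPM). Thy1 was at 1.16 to 3.01 RPM and Twist2 at 0.315 to 1.40 RPM. Col1a1, Col1a2, Col3a1, Lum, Dcn, Postn and Acta2 were below 1 RPM in every library.

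**Figure D1:**
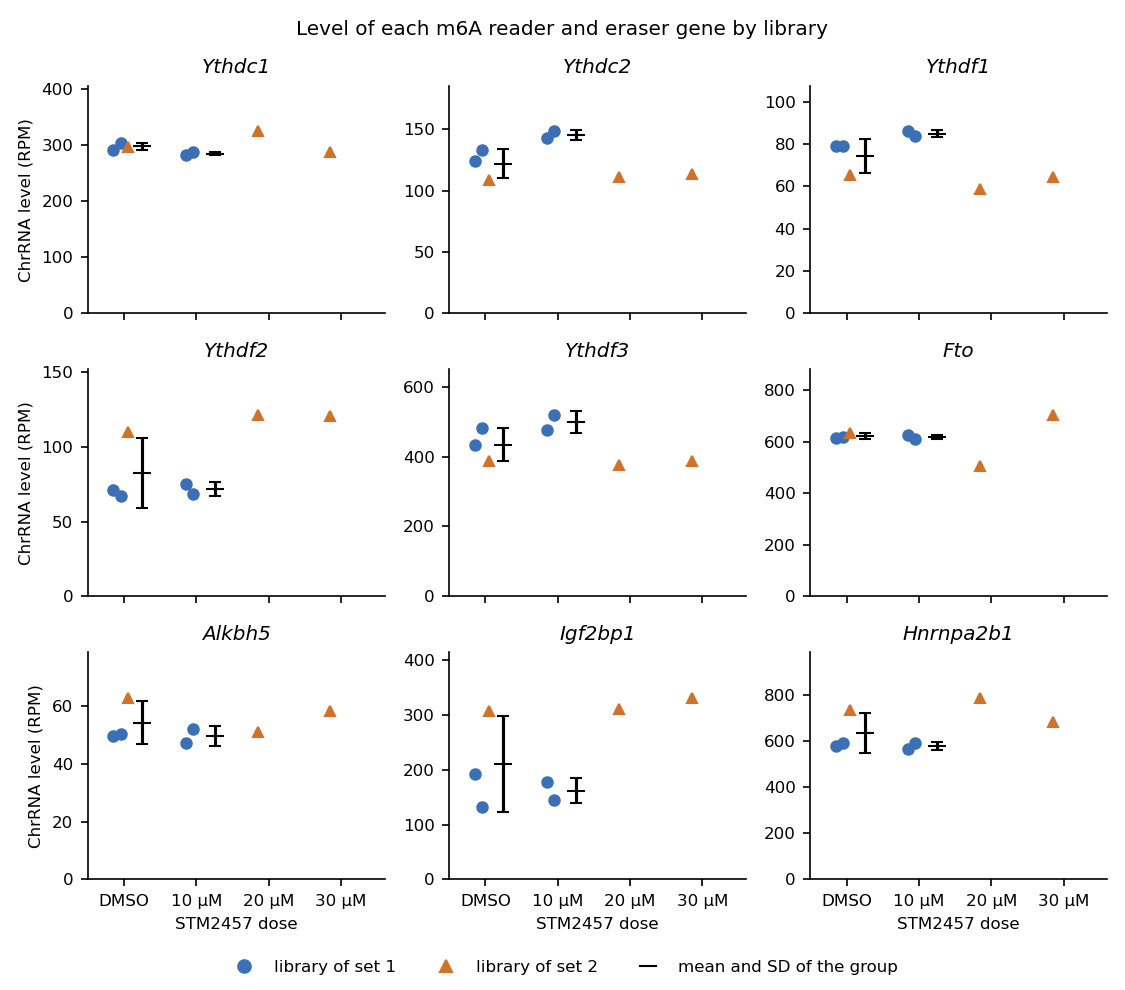
ChrRNA level of each of the 9 genes (RPM, linear axes from 0) in each library against STM2457 dose, with the group mean and SD for DMSO (n = 3) and 10 µM (n = 2). Ythdc1 stays between 283 and 324 RPM, whereas Ythdf2 and Igf2bp1 have all triangles (set 2, DMSO replicate 3 included) above all circles (set 1).

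Per length, levels ranged more widely between the genes than any gene did between libraries. Dividing the RPM level by the gene's span in kb, the mean level in DMSO was highest for Hnrnpa2b1 at 67.2 ± 9.22 RPM per kb (SD, n = 3), followed by Ythdf3 at 12.8 ± 1.39 and Ythdc1 at 9.25 ± 0.175. Ythdf1 at 4.49 ± 0.478 RPM per kb and Igf2bp1 at 4.32 ± 1.81 did not differ beyond their spread, and Ythdf1 was the higher in 2 of 3 DMSO libraries. Ythdf2 at 3.02 ± 0.866 and Alkbh5 at 2.60 ± 0.357 followed, with Igf2bp1 above Ythdf2 and Ythdf2 above Alkbh5 within each of the 3 DMSO libraries although their ranges over libraries overlapped. Ythdc2 had 2.00 ± 0.200 RPM per kb, and the lowest mean level per length was that of Fto at 1.76 ± 0.0314, below Ythdc2 in 2 of 3 DMSO libraries. Fto spans 355 kb and Hnrnpa2b1 9.46 kb, the longest and shortest of the members.

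No member was called at 10 µM by the test over all genes, which is not evidence of no change. In limma on log2(RPM + 1), with 3 DMSO and 2 inhibitor libraries, 0 of the 9 members passed an adjusted p of 0.05, and the background was 0% of 13634 genes. At an unadjusted p under 0.05 there were 213 genes and no member, while edgeR on the recovered read pairs called 0 genes and DESeq2 called 1. The fitted log2 difference (10 µM minus DMSO) was above 0 for Ythdc2, Ythdf1 and Ythdf3 and below 0 for the other 6, with a member median of -0.06 against 0.09 over all genes tested. The median of all genes moved by -0.09 with DESeq2 size factors and by -0.10 with the DESeq2 model on read pairs, and these 9 directions held under each scaling tried. They did not all hold without DMSO replicate 3, where Ythdf2, Fto and Igf2bp1 came out above 0 and the log2 values were 0.06, 0.004 and 0.009.

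Same-numbered DMSO and 10 µM libraries share their starting cells. With replicates 1 and 2 as pairs, limma called 1022 of 13656 genes (7.48%), of which 567 were higher and 455 lower, and 0 of the 9 members. At an unadjusted p under 0.05 there were 2776 of 13656 genes, and 2 of the 9 members, Ythdc2 and Ythdf3, were among them. This fit rests on 1 residual degree of freedom per gene from the libraries, with the spread shared across genes by limma, and it leaves out DMSO replicate 3.

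**Figure D2:**
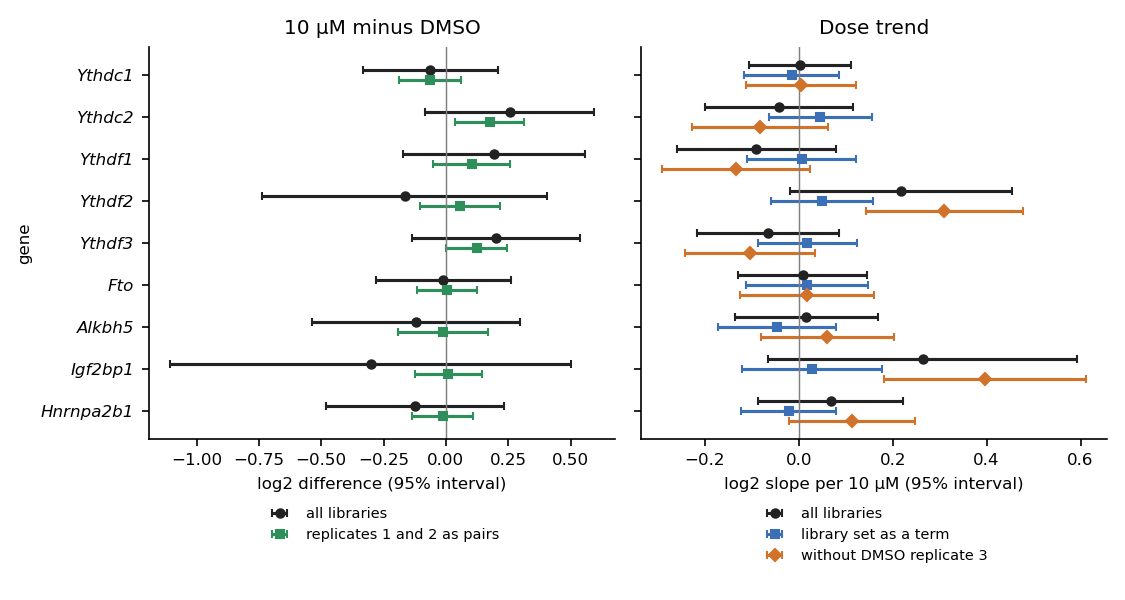
Left, the log2 difference between 10 µM and DMSO for each gene with its 95% interval from limma, over all 5 libraries (black) and with replicates 1 and 2 as pairs (green). Right, the log2 slope per 10 µM over all 7 libraries (black), with the library set as a term (blue) and without DMSO replicate 3 (orange), where the intervals of Ythdf2 and Igf2bp1 alone leave 0.

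With dose as a number over all 7 libraries, 0 of the 9 members passed and the background was 0% of 13599 genes. At an unadjusted p under 0.05 there were 1174 genes and again no member, edgeR called 0 genes and DESeq2 called 129. The slopes, as log2 change per 10 µM, were above 0 for 6 members, and their median was 0.008 against -0.04 over all genes. DMSO replicate 3 decided this outcome. Without it, 18.2% of 13630 genes passed in limma, and 2 of the 9 members were among them, Ythdf2 and Igf2bp1, both with a positive slope, a share near that of all genes. All DMSO and 10 µM libraries of that fit belong to set 1 and both higher doses to set 2, so its slopes cannot be told apart from the difference between the sets.

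Ythdc1 encodes the nuclear YTH reader, which acts in splicing and nuclear export of methylated RNA. It lies on the plus strand of chromosome 5, and its row covers chr5:86804489-86836657 in mm10 (32.2 kb, exons and introns together, as for every gene here). It had 292, 303 and 297 RPM in DMSO replicates 1, 2 and 3, 283 and 287 RPM at 10 µM, 324 RPM at 20 µM and 287 RPM at 30 µM. Both 10 µM libraries were below all 3 DMSO libraries, as for 8.64% of all genes tested. Within the pairs the ratio was 0.968 (counting interval 0.935 to 1.00) in replicate 1 and 0.946 (0.916 to 0.977) in replicate 2, the latter below 1 beyond counting error. The log2 difference was -0.06 (SE 0.11, 95% interval -0.33 to 0.21, adjusted p = 0.864, limma), and as pairs it was -0.06 with an interval of -0.19 to 0.06. In plain RPM its DMSO spread was the second lowest among the members, with a coefficient of variation of 1.89%, and it did not separate the library sets. TMM factors, a scaling from edgeR, were 1.03 to 1.09 in set 1 and 0.902 to 0.955 in set 2. Dividing by them widens the DMSO spread of Ythdc1 and puts every set 2 library above every set 1 library. At 20 µM Ythdc1 stood at 1.09 times DMSO replicate 3 (counting interval 1.05 to 1.14, or 1.19 times without the 5 genes of that library). At 30 µM it stood at 0.968 times (0.935 to 1.00, an interval that includes 1), so in RPM a difference from the control was not detectable. The TMM factor was 0.955 at 30 µM and 0.925 in DMSO replicate 3, and dividing by these puts the 30 µM interval below 1. Over the 7 libraries, the genes with the most similar pattern were Hist1h2af (Pearson's r of log2 levels 0.967), Dnaaf2 (0.927) and Arl6ip1 (0.926), all of which peak in the 20 µM library. Hist1h2af averaged only 1.45 RPM, and with 7 libraries of unequal depth these values are a description.

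Ythdc2 encodes a helicase with a YTH domain that is needed for meiosis in germ cells. Its row covers chr18:44828664-44889720 on the plus strand. Ythdc2 RNA was at 124, 133 and 109 RPM in DMSO replicates 1, 2 and 3, 143 and 148 RPM at 10 µM, 111 RPM at 20 µM and 114 RPM at 30 µM. Both 10 µM libraries exceeded all DMSO libraries, which was so for 16.8% of all genes tested, and Ythdf1 was the other member to do so. The log2 difference at 10 µM was 0.26 (SE 0.14, interval -0.08 to 0.59, adjusted p = 0.808, limma). Within the pairs Ythdc2 was 1.15-fold (counting interval 1.09 to 1.21) and 1.12-fold (1.06 to 1.17) higher at 10 µM. The paired fit gave 0.18 (interval 0.04 to 0.31, adjusted p = 0.109, limma), and edgeR with the same pairs gave an adjusted p of 0.363. In set 2 the ratio was 1.02 at 20 µM (0.944 to 1.10) and 1.04 at 30 µM (0.985 to 1.10), so both intervals include 1. With the totals taken without the 5 genes that stand out at 20 µM, the 20 µM ratio was 1.10 (1.02 to 1.19), above 1 beyond counting error.

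The YTHDF genes encode the cytoplasmic readers, of which YTHDF2 is known for recruiting the deadenylase that shortens mRNA tails. Ythdf1 is on the minus strand (row chr2:180904376-180920936), as is Ythdf2 (chr4:132184915-132212256), and Ythdf3 is on the plus strand (chr3:16183182-16217037). Per length Ythdf3 was the most abundant of them in every library, with 57.9% to 67.1% of their summed RPM per kb. It had 433, 482 and 388 RPM in DMSO replicates 1, 2 and 3, 477 and 520 RPM at 10 µM, 376 RPM at 20 µM and 387 RPM at 30 µM. Within the pairs Ythdf3 was 1.10-fold (1.07 to 1.13) and 1.08-fold (1.05 to 1.11) higher at 10 µM, yet over all libraries the 10 µM values overlapped those of DMSO. The log2 difference was 0.20 (SE 0.14, adjusted p = 0.808, limma), and 0.12 as pairs (adjusted p = 0.239, limma).

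Ythdf1 and Ythdf2 moved in opposite directions between the library sets. Ythdf1 had 78.8, 79.0 and 65.2 RPM in DMSO replicates 1, 2 and 3, 85.9 and 83.7 RPM at 10 µM, 58.5 RPM at 20 µM and 64.6 RPM at 30 µM. Its 10 µM libraries were above all DMSO libraries, with a log2 difference of 0.19 (SE 0.15, adjusted p = 0.808, limma) that fell to 0.10 as pairs (adjusted p = 0.496, limma). Ythdf2 had 71.0, 66.7 and 110 RPM in DMSO, 75.1 and 68.3 RPM at 10 µM, 121 RPM at 20 µM and 121 RPM at 30 µM. In RPM all set 2 libraries were therefore above all set 1 libraries for Ythdf2 and below them for Ythdf1 and Ythdf3, whatever the treatment. Dividing by the TMM factors given for Ythdc1 makes the sets overlap for Ythdf3, but not for Ythdf1 and Ythdf2. The ratio of Ythdf2 to Ythdf1, both in RPM per kb, was 0.494 to 0.546 in set 1, and 1.02 in DMSO replicate 3, 1.26 at 20 µM and 1.13 at 30 µM.

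**Figure D3:**
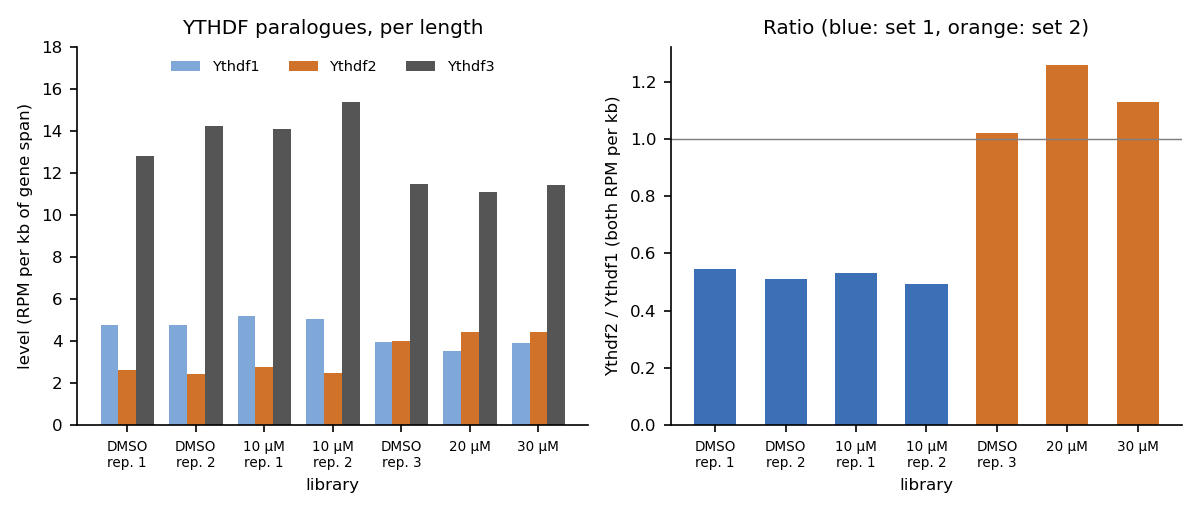
Left, the level of Ythdf1, Ythdf2 and Ythdf3 in RPM per kb of gene span in each library, ordered by set. Right, the ratio of Ythdf2 to Ythdf1 in RPM per kb, which is below 1 in the 4 libraries of set 1 while set 2 runs from 1.02 (DMSO replicate 3) to 1.26 (20 µM).

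The slope of Ythdf2 with dose was 0.22 per 10 µM on the log2 scale (SE 0.10, 95% interval -0.02 to 0.45, adjusted p = 0.508, limma). Without DMSO replicate 3 it was 0.31 (SE 0.07, adjusted p = 0.0315, limma), and with the library set as a term it was 0.05 (SE 0.05, adjusted p = 0.857, limma). The set term was derived from these same levels, so slopes fitted with it, here and for other genes, are a description. Within set 2, Ythdf2 was 1.11 times DMSO replicate 3 at 20 µM (counting interval 1.03 to 1.19, or 1.20 times without the 5 genes) and 1.10 times at 30 µM (1.04 to 1.16). These ratios are small beside the 1.59-fold between DMSO replicate 3 and the mean of DMSO replicates 1 and 2. In set 1 the same gene was 1.06-fold (0.988 to 1.13) and 1.02-fold (0.956 to 1.09) higher at 10 µM, and both intervals include 1.

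Promoters are shown for Ythdf1 and Ythdf2, the paralogues that separate the sets in opposite directions. Sequences come from RefSeq on GRCm38.p6, cover 250 bases before to 50 after the start site, and matched 6 of the 9 members. Both genes are on the minus strand, at chr2:180920887-180921186 and chr4:132212207-132212506, and the sequences run 5′ to 3′ along the gene. Capitals mark matches on either strand to the letters TGCGCA (part of the NRF1 motif), TGACG (the core of a CRE), CACGTG (an E-box) and GGGCGG (a GC box). No matches to these motifs overlap each other in either sequence.
Ythdf1: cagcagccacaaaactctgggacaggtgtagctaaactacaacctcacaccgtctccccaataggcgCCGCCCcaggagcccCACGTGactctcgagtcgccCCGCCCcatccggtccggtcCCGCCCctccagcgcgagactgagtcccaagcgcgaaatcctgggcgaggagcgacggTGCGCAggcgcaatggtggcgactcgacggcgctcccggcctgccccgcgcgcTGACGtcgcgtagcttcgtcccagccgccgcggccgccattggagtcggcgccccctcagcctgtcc
Ythdf2: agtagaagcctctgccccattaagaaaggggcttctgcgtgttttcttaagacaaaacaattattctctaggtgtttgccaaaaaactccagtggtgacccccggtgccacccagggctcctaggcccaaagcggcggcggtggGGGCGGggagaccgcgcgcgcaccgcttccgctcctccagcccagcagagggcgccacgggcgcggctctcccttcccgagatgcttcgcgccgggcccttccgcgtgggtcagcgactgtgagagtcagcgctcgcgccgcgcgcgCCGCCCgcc
The Ythdf1 promoter held 1 match to TGCGCA, beginning at position -70 from the start site, letters found in 7.76% of 32851 promoters of the same length. It also held 1 match to TGACG at -17 (20.8% of promoters) and 1 to CACGTG at -168 (7.15%). The Ythdf2 promoter held none of these, and TATAAA (13.6% of promoters) was in neither. Hnrnpa2b1, higher in set 2 as Ythdf2 is, held 1 match each to TGCGCA and TGACG. A link between these letters and the direction between the sets was not tested. GC boxes, present in 35.7% of promoters, numbered 3 in Ythdf1 and 2 in Ythdf2. Both are rich in CpG, with 37 and 32 CG pairs in 300 bases against a median of 7. These matches describe the letters alone, and no binding was measured.

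Fto encodes a demethylase that also acts on m6Am, the related mark next to the mRNA cap, and lies on the plus strand (row chr8:91313524-91668433). In plain RPM it had the steadiest level in DMSO, 614, 620 and 636 RPM, a coefficient of variation of 1.79%, and 625 and 612 RPM at 10 µM. Its log2 difference at 10 µM was -0.01 (SE 0.11, interval -0.28 to 0.26, adjusted p = 0.980, limma). The paired interval was narrower, from -0.12 to 0.13. The higher doses then gave both its lowest and its highest level, 508 RPM at 20 µM and 706 RPM at 30 µM. These are 0.799 times (counting interval 0.773 to 0.826) and 1.11 times (1.09 to 1.14) DMSO replicate 3. Taking the 5 genes that stand out at 20 µM out of the totals changed the 20 µM ratio to 0.867. Genes with a span of at least 300 kb in the table (495 genes) had a median ratio of 0.912 at 20 µM and 1.04 at 30 µM, close to 0.934 and 1.03 over all genes, and the part of gene length in the values of Fto was not tested.

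Alkbh5 encodes the other m6A demethylase, a nuclear protein. Its row covers chr11:60537682-60558512 on the plus strand. It had 49.5, 50.4 and 62.8 RPM in DMSO replicates 1, 2 and 3, 47.1 and 52.1 RPM at 10 µM, 50.9 RPM at 20 µM and 58.1 RPM at 30 µM. DMSO replicate 3 was thus the highest library. The log2 difference at 10 µM was -0.12 (SE 0.17, adjusted p = 0.833, limma), and the ratio within pairs was 0.952 (0.875 to 1.04) and 1.03 (0.957 to 1.12). As pairs the log2 difference was -0.011, and with each library left out it ran from -0.19 to -0.011. At 20 µM Alkbh5 was 0.809 times DMSO replicate 3 (0.727 to 0.900), or 0.878 times without the 5 genes, and at 30 µM 0.925 times (0.857 to 0.998). Both erasers were therefore lower than DMSO replicate 3 at 20 µM, where the median ratio over all genes was 0.934. Of these, only Alkbh5 was also lower at 30 µM. Neither of these Alkbh5 levels was below those of DMSO replicates 1 and 2. Shares of all genes past such ratios were not counted.

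Igf2bp1 encodes an oncofetal RNA-binding protein that stabilises target mRNAs, and it was the most variable member. It lies on the minus strand (row chr11:95957163-96005944). It had 193, 133 and 307 RPM in DMSO replicates 1, 2 and 3, 178 and 146 RPM at 10 µM, 311 RPM at 20 µM and 332 RPM at 30 µM. DMSO replicate 3 was 1.88 times the mean of the other DMSO libraries, and the coefficient of variation over DMSO was 41.9%. The pairs moved in opposite directions, 0.924 times (counting interval 0.886 to 0.965) in replicate 1 and 1.10 times (1.05 to 1.15) in replicate 2. The log2 difference at 10 µM was accordingly imprecise, -0.30 (SE 0.33, interval -1.11 to 0.50, adjusted p = 0.813, limma). With dose the slope was 0.26 per 10 µM (SE 0.14, adjusted p = 0.508, limma), which became 0.40 (SE 0.10, adjusted p = 0.0318, limma) without DMSO replicate 3 and 0.03 (SE 0.07, adjusted p = 0.963, limma) with the set as a term. Within set 2 it was 1.01 times DMSO replicate 3 at 20 µM (0.969 to 1.06, or 1.10 without the 5 genes, 1.05 to 1.15) and 1.08 times at 30 µM (1.05 to 1.12). In bulk libraries, a change in the share of cells that express such a gene and a change in RNA per cell cannot be told apart. The summed mES and fibroblast marker levels given above also differed between the sets, and their part in the level of Igf2bp1 was not tested.

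Hnrnpa2b1 encodes a nuclear RNA-binding protein with roles in splicing and microRNA processing. Its row covers chr6:51460434-51469894 on the minus strand. It had 579, 592 and 737 RPM in DMSO replicates 1, 2 and 3, 568 and 593 RPM at 10 µM, 790 RPM at 20 µM and 684 RPM at 30 µM. All set 2 libraries were above all set 1 libraries. Within set 1 it was nearly level, with ratios of 0.981 (0.957 to 1.00) and 1.00 (0.979 to 1.02) in the pairs. In set 2 it was 1.07 times DMSO replicate 3 at 20 µM (1.04 to 1.10, or 1.16 times without the 5 genes) and 0.929 times at 30 µM (0.908 to 0.949), in opposite directions, so that 20 µM stood at 1.15 times 30 µM (1.12 to 1.19). The log2 difference at 10 µM was -0.12 (SE 0.15, adjusted p = 0.818, limma) and the slope with dose was 0.07 (SE 0.07, adjusted p = 0.607, limma). As pairs the difference was -0.013. With each library left out the difference ran from -0.19 to -0.013 and the slope from 0.030 to 0.11.

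**Figure D4:**
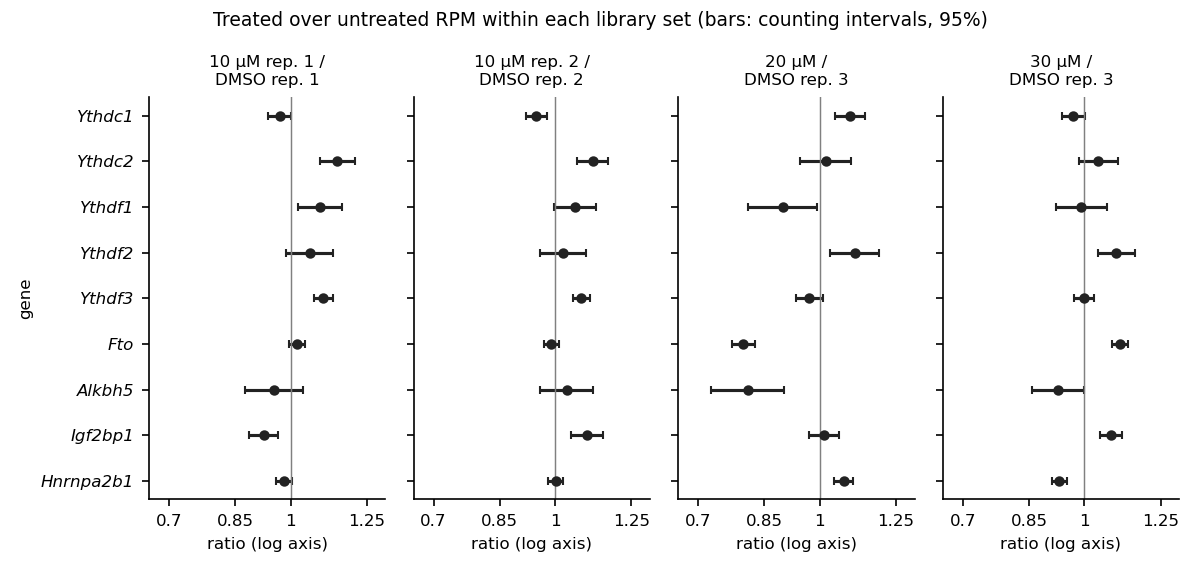
Ratio of inhibitor to DMSO RPM for each gene within the library sets, on a log axis, with 95% counting intervals, for the pairs at 10 µM and for 20 µM and 30 µM over DMSO replicate 3, which both share. The ratios run from 0.799 (Fto at 20 µM) to 1.15 (Ythdc2 in replicate 1).

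Side by side within the sets, no member reached 1.5-fold, and with 9 members that count is near the shares over all genes. In the 10 µM pairs none of the 9 did, against 1.70% of 13599 genes in replicate 1 and 2.26% in replicate 2. The median absolute log2 change of the members was 0.08 in each pair, against 0.14 over all genes. All genes include genes of far lower level, with larger counting error, and the part of level in this difference was not tested. At 20 µM against DMSO replicate 3 none of the 9 reached 1.5-fold (12.9% of all genes did), and at 30 µM none did either (7.89% of all genes). Taking the 5 genes out of the totals raised every 20 µM ratio by the same factor, which turned Ythdf3 from 0.969 to 1.05 (counting interval 1.01 to 1.09) and brought Ythdf1 from 0.897 to 0.974 (0.880 to 1.08). Fto and Alkbh5 were then the members whose 20 µM interval lay below 1. The ratios at 20 µM and 30 µM come from 1 library per dose and share their control, so they have no replicate check. The sample labels do not pair these doses with DMSO replicate 3, which lies in the same set. Between DMSO replicate 3 and the mean of DMSO replicates 1 and 2, with no difference in treatment, Ythdf2 and Igf2bp1 passed 1.5-fold, 2 of 9 members against 35.5% of all genes. Across the sets, Ythdf2, Igf2bp1 and Hnrnpa2b1 were higher in every set 2 library (3 of 9, against 18.7% of all genes) and Ythdc2, Ythdf1 and Ythdf3 lower in every one (3 of 9, against 39.8%). Neither share stands far from that of all genes, which also defined the sets, so these counts are a description. In RPM 3 members (Ythdc1, Fto and Alkbh5) overlapped. The counts depend on the scaling. Dividing by the TMM factors given for Ythdc1 puts Ythdc1 and Alkbh5 higher in every set 2 library, and Ythdc2 and Ythdf3 then overlap. Shares of all genes under that scaling were not counted.

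Other genes of the pathway were read from lists of 12 writer subunits and related methyltransferases, 10 other readers, 7 AlkB homologues and 10 partners of YTH proteins that passed the minimum level. Of these 39 genes, 0 passed at 10 µM and 0 with dose in limma over all genes. Without DMSO replicate 3, 9 of 39 passed with dose, 2 higher and 7 lower, beside 18.2% of all genes. With the replicate pairs, 40 of the listed genes passed the minimum level and 2 of them were called at 10 µM, both lower, beside 7.48% of all genes. Igf2bp3, a paralogue of Igf2bp1, had 141 and 126 RPM in DMSO replicates 1 and 2 and 123 and 105 RPM at 10 µM, a paired log2 difference of -0.23 (SE 0.07, adjusted p = 0.0271, limma). Hnrnpc, which binds sites made accessible by m6A, had 369 and 350 RPM in DMSO and 326 and 305 RPM at 10 µM, a paired difference of -0.19 (SE 0.06, adjusted p = 0.0404, limma). In set 2, Hnrnpc had 642 RPM in DMSO replicate 3, 644 RPM at 20 µM and 585 RPM at 30 µM, and its slope over all 7 libraries was 0.18 (SE 0.14, adjusted p = 0.545, limma). With the library set as a term the slope was -0.06 (SE 0.05, adjusted p = 0.759, limma). Neither passed in edgeR with the same pairs, where the adjusted p was 0.0772 for Igf2bp3 and 0.250 for Hnrnpc.

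Igf2bp3 and Igf2bp1 had unlike patterns over dose. Igf2bp3 had 123 RPM in DMSO replicate 3, 85.8 RPM at 20 µM and 90.7 RPM at 30 µM, so both higher doses lay below that library. At 10 µM it was lower than DMSO in both pairs. Its slope was -0.20 per 10 µM (SE 0.06, 95% interval -0.34 to -0.07, adjusted p = 0.508, limma). Without DMSO replicate 3 it was -0.21 (SE 0.06, adjusted p = 0.0471, limma). With the library set as a term the slope remained -0.17 (SE 0.06, adjusted p = 0.276, limma). Mettl3, the inhibitor's target, had 41.2, 39.1 and 30.3 RPM in DMSO, 40.2 and 42.6 RPM at 10 µM, 22.6 RPM at 20 µM and 27.3 RPM at 30 µM. Its slope was -0.19 per 10 µM (SE 0.10, adjusted p = 0.508, limma) and -0.05 with the set as a term (adjusted p = 0.908, limma). Xist, induced by Dox in every library, had 1540 to 1720 RPM in set 1, and in set 2 it had 3209 RPM in DMSO replicate 3, 4161 RPM at 20 µM and 5172 RPM at 30 µM. These are 1.30 and 1.61 times that control, against 1.11 and 1.10 for Ythdf2. The slope of Xist was 0.47 (SE 0.16, adjusted p = 0.508, limma) over all 7 libraries and 0.61 (SE 0.10, adjusted p = 0.0273, limma) without DMSO replicate 3. With the set as a term it was 0.20 (SE 0.05, adjusted p = 0.164, limma).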

How the data were processed

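The deposited RPM values were made by the authors, who filtered rRNA reads out with bowtie2, mapped what was left with STAR to mm10 with SNP positions masked, retained uniquely placed pairs, assigned them by strand to whole transcripts with featureCounts, and scaled each library to its total on genes. Reads shared with near-identical copies of a gene were thus dropped. A table of allelic ratios for X-linked genes was not used. Gene positions are printed as deposited. Starts lay 1 base before the RefSeq start for 58.3% of 21158 matched genes.

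Whole read pairs were recovered from the RPM steps (100% of values above 0 within 0.05 read pairs). After a filter (mean of 1 RPM or more), limma 3.58.1 with lmFit and a trended eBayes was run on log2(RPM + 1), which understates changes of low genes, and p-values were Benjamini-Hochberg adjusted over all genes (threshold 0.05). edgeR 4.0.16 and DESeq2 1.42.0 (R 4.3.3) on the recovered read pairs, other pseudocounts, filters and scalings, a library-set term, the replicate block and each library left out were alternatives. Summaries were made in Python 3.11.15 (pandas 2.3.3, scipy 1.17.1). The main designs were first tested on simulated data with limma, edgeR and DESeq2. The replicate block, the library-set term, the other scalings and the fits with a library left out were not. P-values set each difference or slope against the spread between these libraries, which all come from 1 clone.

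DMSO and 10 µM libraries of replicates 1 and 2 were paired because, per the methods of the study, a biological replicate's wells came from 1 batch of cells. Deviations from the means over these replicates correlated with r = 0.621 over 13599 genes, and from means that include DMSO replicate 3 with r = 0.040 and 0.573.

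The members, the pathway lists and the library sets were chosen with earlier results of these data known. Named genes are the 9 members, other pathway genes past the threshold in any of the 3 fits, Mettl3, Xist and the 3 genes most like Ythdc1. The 5 genes of the 20 µM library come from earlier work on these values.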

Additional observations from a re-analysis of the deposited data

How the results depend on the processing

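No member passed the threshold at 10 µM in any of the alternatives fitted. Genes called at 10 µM numbered 0 in the main fit, 1 with DESeq2, 1 with the library set as a term, 1 over replicates 1 and 2 without the block, 1022 with the replicate block and 831 with the block in edgeR, and between 0 and 1 with each library left out. The block called 2 other pathway genes where the main fit called 0, and it changed no member's call. The 10 µM difference of Ythdf2 turned from -0.17 to 0.056 with the set as a term, with the block, and over replicates 1 and 2 without it (0.034 with the block in edgeR), and ran from -0.30 to 0.056 with each library left out. Under the same 3 settings that of Fto turned to 0.0043 (-0.025 to 0.0047 with libraries left out) and that of Igf2bp1 to 0.0092 (-0.59 to 0.0092), but with the block in edgeR they kept their direction (-0.018 and -0.014). With dose, DESeq2 called 129 genes and the set term 27, and leaving out a library gave 0 to 2479 genes, 0 to 2 members and 0 to 9 other pathway genes, all the non-zero counts without DMSO replicate 3. Slopes of Ythdf2 ran from 0.17 to 0.31 and of Igf2bp1 from 0.19 to 0.40 with libraries left out. With the set as a term slopes turned to -0.015 (Ythdc1), 0.046 (Ythdc2), 0.0061 (Ythdf1), 0.019 (Ythdf3), -0.046 (Alkbh5) and -0.021 (Hnrnpa2b1). That of Ythdc2 was 0.0073 with edgeR and 0.0014 with DESeq2. With libraries left out, slopes of Ythdc1 ran from -0.019 to 0.037, of Fto from -0.12 to 0.056 and of Alkbh5 from -0.057 to 0.061. The cause of these changes was not tested. Over DMSO replicate 3, 20 µM and 30 µM alone, with no test, the slope of Igf2bp1 was 0.033 and of Ythdf2 0.049, and the sign turned for Ythdc1 (-0.0044), Ythdc2 (0.018), Alkbh5 (-0.053) and Hnrnpa2b1 (-0.023). Totals without the 5 genes, an alternative chosen after seeing the data, changed no call and no direction in the 10 µM and dose fits, but turned the 20 µM ratio of Ythdf3 over DMSO replicate 3 from 0.969 to 1.05. The 20 µM library, with 9300549 read pairs, has the widest counting interval relative to the level of each member, and 20 µM and 30 µM have no replicate.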
